A study of Mus musculus with 3 samples.

Results

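The Fc receptors are the proteins by which cells bind the constant tail of antibodies, and 6 of their genes are described here in macrophages of the mouse colon. The genes were taken by name. Fcgr1 (CD64), Fcgr3 and Fcgr4 encode activating receptors for IgG, and Fcer1g encodes the signalling chain they share. Fcgr2b encodes the inhibitory receptor, and Fcgrt the neonatal Fc receptor FcRn. All 6 had a row in the deposited tables, out of 23997 rows in each, and all 6 averaged above the 1 FPKM needed to enter the comparisons. FPKM count the fragments of a gene relative to its transcript length and to the size of the library, so levels can be set side by side between genes.

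The study asked how loss of the Groucho-family corepressors Tle3 or Tle4 in myeloid cells changes colonic macrophages. The Tle3cKO group carried floxed Tle3 (Tle3f/f) with Lyz2-Cre, the Tle4cKO group floxed Tle4 (Tle4f/f) with Lyz2-Cre, and the WT group Lyz2-Cre alone, so all 3 groups carried the Cre. Lyz2-Cre is active mainly in macrophages and neutrophils and in part of the monocytes and dendritic cells, so other cells of the colon wall are largely spared. The mice were untreated males on C57BL/6, with an age given as 9 weeks in one label and 8.9 weeks in another. CD64-positive cells with low Ly6C and no Siglec-F were sorted from 3 Tle3cKO, 4 Tle4cKO and 4 WT mice and pooled by genotype. Each genotype is therefore 1 library. The spread between animals was not measured, so differences stand without replicates, errors or tests. CD64 is the protein made from Fcgr1, so the sort itself set a floor on the CD64 of every cell.

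The targeted genes were looked at first. Tle3 had 70.7 FPKM in the library labelled Tle3cKO, 46.9 FPKM in Tle4cKO and 38.6 FPKM in WT, so it was not lower in the library that should lack it. Tle4 had 11.0 FPKM in the library labelled Tle3cKO, 5.80 FPKM in Tle4cKO and 8.50 FPKM in WT. Values are summed over each gene, and the loss of some exons need not lower them. Every direction drawn from the library labelled Tle3cKO below carries that doubt. Total FPKM was 569961 in the library labelled Tle3cKO, 598023 in Tle4cKO and 610714 in WT. Relative depth was judged by the most frequent ratio between WT and the other library among genes detected below 0.3 FPKM in both. By this measure the library labelled Tle3cKO had 0.968 times the sequencing depth of WT and Tle4cKO 1.21 times. The absolute depth is unknown. All 12 macrophage identity genes were present, with Emr1 (F4/80) at 143 FPKM in the library labelled Tle3cKO, 147 in Tle4cKO and 150.4 in WT.

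When IgG-coated particles cluster the activating receptors, Src-family kinases phosphorylate the activation motif (ITAM) on the tail of the Fcer1g chain. Syk binds there and sets off phagocytosis, the oxidative burst and cytokine release. Fcgr2b carries an inhibitory motif (ITIM) instead, which recruits the phosphatase SHIP-1 (Inpp5d) and raises the amount of immune complex needed to set off the cell. FcRn works inside the cell: it pairs with B2m, binds IgG and albumin in acidic endosomes and returns them to the surface. Fcgr1 binds single IgG molecules with high affinity and is a textbook target of interferon-gamma, and gut macrophages are commonly recognised by it.

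The promoter of Fcgr1 and that of Fcgr4 are shown because these genes had the highest and the lowest ratios of the activating receptors in the library labelled Tle3cKO, and because each holds a motif of interferon signalling. They are from RefSeq on GRCm38.p6, which has the same coordinates as mm10, and run 5′ to 3′ on the strand of the gene from 250 bases before the start of transcription to 50 after it. Capitals mark matches of 3 motifs searched on both strands: CTTCCTC, the core of the box bound by PU.1 (Spi1); TTCNNNGAA, the GAS element of interferon-gamma signalling; and a repeat of GAAA with any 2 bases between the copies, bound by interferon regulatory factors. No match overlapped another.
Fcgr1, chr3:96293920-96294219, minus strand: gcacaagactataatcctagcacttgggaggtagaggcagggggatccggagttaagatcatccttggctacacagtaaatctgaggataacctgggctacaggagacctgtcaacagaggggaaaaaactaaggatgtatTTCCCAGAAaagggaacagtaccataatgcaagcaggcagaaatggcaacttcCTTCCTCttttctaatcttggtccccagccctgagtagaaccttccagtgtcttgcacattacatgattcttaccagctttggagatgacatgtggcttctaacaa
Fcgr4, chr1:171018676-171018975, plus strand: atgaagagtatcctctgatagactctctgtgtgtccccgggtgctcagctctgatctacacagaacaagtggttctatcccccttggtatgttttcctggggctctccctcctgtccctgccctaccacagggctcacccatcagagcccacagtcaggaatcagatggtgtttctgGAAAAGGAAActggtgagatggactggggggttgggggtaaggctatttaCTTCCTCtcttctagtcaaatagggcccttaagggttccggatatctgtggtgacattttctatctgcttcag

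The letters CTTCCTC lay 56 bases before the start of Fcgr1 and 23 bases before that of Fcgr4. They also lay 7 bases before the start of Fcgr3, so all 3 activating receptors had them in this window, on the same strand. To show the likeness around the box, the 60 bases about each match are set out with the box in capitals.
Fcgr1, chr3:96293993-96294052, minus strand: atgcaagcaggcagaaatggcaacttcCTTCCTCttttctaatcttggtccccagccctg
Fcgr3, chr1:171059378-171059437, minus strand: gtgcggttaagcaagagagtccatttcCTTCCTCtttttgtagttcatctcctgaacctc
Fcgr4, chr1:171018876-171018935, plus strand: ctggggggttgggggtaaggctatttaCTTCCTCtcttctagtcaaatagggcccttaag
Of 32851 promoters of this length in the same set, 13.6% held CTTCCTC, 8.3% held TTCNNNGAA and 3.44% held the GAAA repeat. The GAS letters were found 109 bases before the start of Fcgr1, and the interferon regulatory factor repeat 73 bases before that of Fcgr4. None of the 3 motifs was found in these windows of Fcgr2b, Fcer1g and Fcgrt, which says only that the letters are not there. A match of letters is no measurement of binding.

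Fcer1g was the most abundant of the 6 genes in every library. Its level (ENSMUSG00000058715.11, chromosome 1, 171229572 to 171234349, mm10) was 720.02 FPKM in the library labelled Tle3cKO, 721 FPKM in Tle4cKO and 845 FPKM in WT, which made it gene number 115, 123 and 105 of each library by level. The library labelled Tle3cKO and that of Tle4cKO were lower than WT and nearly equal to each other. Fcer1g carries the ITAM for Fcgr1, Fcgr3 and Fcgr4, and stood at 2.45 times their summed FPKM in the library labelled Tle3cKO, 1.999 times in Tle4cKO and 2.51 times in WT.

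Fcgr3, the low-affinity activating receptor, was the most abundant receptor for IgG. Its level (ENSMUSG00000059498.13, chromosome 1, 171051169 to 171059403) was 186 FPKM in the library labelled Tle3cKO, 232 FPKM in Tle4cKO and 212 FPKM in WT. Fcgr2b, the inhibitory receptor (ENSMUSG00000026656.15, chromosome 1, 170960559 to 170976071), followed with 163 FPKM in the library labelled Tle3cKO, 187 FPKM in Tle4cKO and 192 FPKM in WT. The ranges of these neighbours in the order overlapped between libraries, though Fcgr3 was the higher of the pair in each. Fcgr4, which binds IgG2a and IgG2b in mice (ENSMUSG00000059089.4, chromosome 1, 171018926 to 171029761), had 71.9 FPKM in the library labelled Tle3cKO, 89.8 FPKM in Tle4cKO and 91.9 FPKM in WT. It was low in a single library, the one labelled Tle3cKO.

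Fcgrt (ENSMUSG00000003420.8, chromosome 7, 45092993 to 45103822) had 54.6 FPKM in the library labelled Tle3cKO, 52.8 FPKM in Tle4cKO and 50.3 FPKM in WT. It varied least of the 6, with a highest level 1.09 times the lowest. Fcgr1 (ENSMUSG00000015947.10, chromosome 3, 96282909 to 96293969), the gene of the sort marker, had the lowest level of the 6 in each library, at 36.0 FPKM in the library labelled Tle3cKO, 39.2 FPKM in Tle4cKO and 33.3 FPKM in WT. WT was the lowest of the 3. The order Fcer1g, Fcgr3, Fcgr2b, Fcgr4, Fcgrt and Fcgr1 was the same in all 3 libraries, and only the ranges of Fcgr3 and Fcgr2b overlapped. The widest span was that of Fcgr4, with a highest level 1.28 times the lowest.

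**Figure D1:**
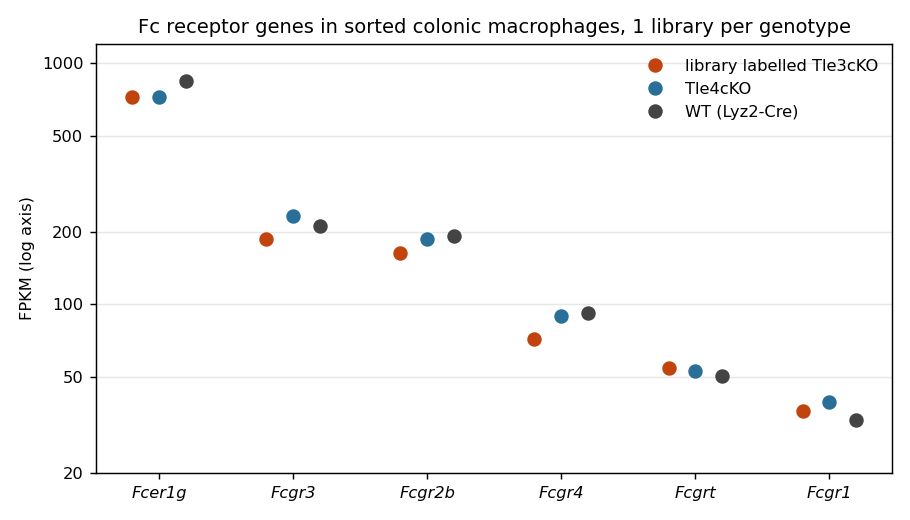
FPKM (log axis) of the 6 Fc receptor genes in the library labelled Tle3cKO, Tle4cKO and WT, with each point 1 library of pooled mice and no error bar because there is no replicate. Fcer1g lies between 720.02 and 845 FPKM and Fcgr1 between 33.3 and 39.2 FPKM, and the order of the genes is the same in every library.

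Reads of Fcgr3 and Fcgr2b can be hard to tell apart, since the parts that encode their antibody-binding domains are close copies. The longest run shared by the transcripts Fcgr2b-201 and Fcgr3-201 in GENCODE M21 was 129 bases, coding in both and spanning exons 3 and 4 (Fcgr2b, chr1:170967980-170968081 and chr1:170966674-170966700; Fcgr3, chr1:171057691-171057792 and chr1:171054167-171054193; minus strand). It is shown because a fragment that falls wholly within it cannot be assigned to either gene by its sequence.
Shared by Fcgr2b and Fcgr3: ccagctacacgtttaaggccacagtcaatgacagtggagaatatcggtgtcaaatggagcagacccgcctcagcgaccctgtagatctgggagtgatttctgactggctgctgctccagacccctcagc
Of all 50-base windows of the coding transcripts of Fcgr3, 10.2% were also in a transcript of Fcgr2b, and of those of Fcgr2b 4.48% were in one of Fcgr3. With windows of 100 bases the shares were 2.70% and 1.14%. Counting any other gene, the shares for Fcgr2b were 6.72% at 50 bases and 2.12% at 100, while those for Fcgr3 were unchanged. Fcgr1, Fcgr4, Fcer1g and Fcgrt had 0 windows of 50 bases in common with any other gene. The levels of Fcgr3 and Fcgr2b are thus less certain than those of the other 4. The antisense gene Gm38204 also overlaps Fcgr2b in that annotation, and the sources used here do not say whether strand was used in counting.

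Activating and inhibitory receptors share their ligand, so their proportion within a library was compared. Fcgr2b stood at 0.555 of the summed FPKM of Fcgr1, Fcgr3 and Fcgr4 in the library labelled Tle3cKO, at 0.518 in Tle4cKO and at 0.569 in WT. Tle4cKO thus had the lowest share of the inhibitory receptor and WT the highest, over a narrow range. Without Fcgr1, whose protein was sorted for, the proportions were 0.632 in the library labelled Tle3cKO, 0.581 in Tle4cKO and 0.632 in WT. These proportions do not depend on how the libraries are scaled, but they rest on the division of reads between Fcgr2b and Fcgr3.

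Within the activating receptors Fcgr1 made up 12.3% of the summed FPKM in the library labelled Tle3cKO, 10.9% in Tle4cKO and 9.87% in WT. For Fcgr4 the shares were 24.5% in the library labelled Tle3cKO, 24.9% in Tle4cKO and 27.3% in WT. Fcgr3 kept between 62.8% and 64.2% of the sum. The level of Fcgr4 was 1.996 times that of Fcgr1 in the library labelled Tle3cKO, 2.29 times in Tle4cKO and 2.76 times in WT, so Fcgr1 and Fcgr4 stood farthest apart in WT.

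**Figure D2:**
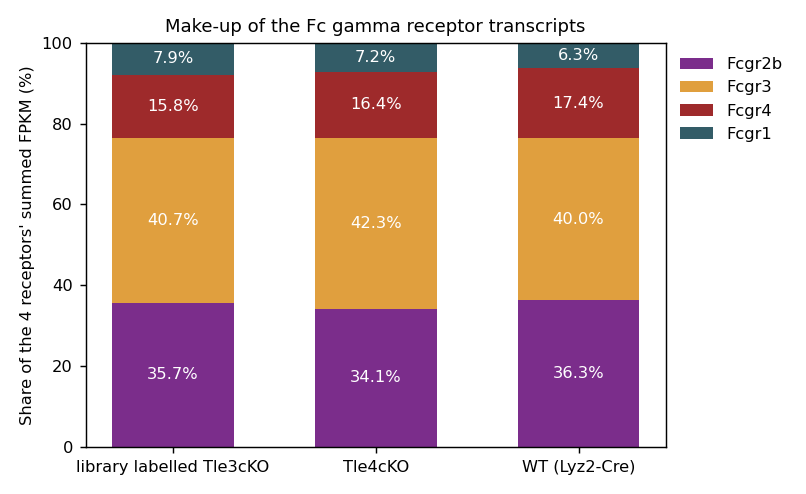
Stacked bars of the share (%) of each receptor gene in the summed FPKM of Fcgr2b, Fcgr3, Fcgr4 and Fcgr1, from left to right in the library labelled Tle3cKO, Tle4cKO and WT, 1 library each. Fcgr1 takes 7.9% in the library labelled Tle3cKO, 7.2% in Tle4cKO and 6.3% in WT, while Fcgr2b takes 35.7%, 34.1% and 36.3% in the same order.

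In the library labelled Tle3cKO, 4 of the 6 genes were below WT and 2 were above it. Differences are given as log2 ratios on the log2(FPKM + 1) scale. The 4 lower genes were Fcgr4, with a ratio of -0.35, Fcgr2b with -0.23, Fcer1g with -0.23 and Fcgr3 with -0.19. Fcgr1 and Fcgrt were above WT with ratios of 0.11 and 0.12. Of 11114 genes averaging 1 FPKM or more, 52.4% were below WT in this comparison and 47.6% above, so 4 of 6 is close to what all genes showed. None of the 6 differed 2-fold, a size reached by 0.423% of those genes, or 1.5-fold, reached by 2.68%.

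The median log2 ratio of the 6 genes in that comparison was -0.21, against -0.01 over all genes tested. Among genes averaging 30 FPKM or more, the middle 95% of ratios ran from -0.34 to 0.31, and Fcgr4, just beyond the lower bound, was the single member outside it. That range describes genes and not replicates. The 4 lower genes stayed below WT and the 2 higher ones above it in all 9 other settings tried, but scaling the libraries to equal totals drew Fcgr4 to -0.25 and Fcgr3 to -0.09, nearer to WT, and Fcgr1 and Fcgrt to 0.21 each, farther from it. In bulk RNA, fewer cells of a type and less RNA per cell cannot be told apart.

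In Tle4cKO the 6 genes divided evenly, with 3 above WT and 3 below. Fcgr1 had the highest log2 ratio at 0.23, followed by Fcgr3 with 0.13 and Fcgrt with 0.07. Fcer1g was lowest at -0.23. Fcgr2b and Fcgr4 were at -0.04 and -0.03, and stood at 0.01 and 0.02 when the totals of all but histone, small RNA, receptor segment and ribosomal protein genes were made equal. Of all genes tested 49.4% were above WT and 50.6% below, 0.648% differed 2-fold and 2.91% differed 1.5-fold, and none of the 6 reached either size. The median of the 6 was 0.02, beside -0.003 over all genes tested. When the macrophage identity genes were made equal, it was -0.02, beside -0.04 over all genes tested. All 6 lay within the middle 95% of genes averaging 30 FPKM or more, which ran from -0.33 to 0.27.

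Both comparisons used the same WT library, so they are not independent. Side by side, Fcgr1 was above WT in both, at 0.11 (library labelled Tle3cKO) and 0.23 (Tle4cKO). Fcer1g was below WT in both, at -0.23 in each. Fcgr1 and its signalling chain thus differed from WT in opposite directions. Fcgr3 was below WT in the library labelled Tle3cKO (-0.19), but above it in Tle4cKO (0.13).

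Set directly against each other, Tle4cKO had the higher level than the library labelled Tle3cKO for Fcgr3 (log2 ratio 0.32), Fcgr4 (0.32), Fcgr2b (0.20) and Fcgr1 (0.12). Fcgrt was at -0.05. Fcer1g was at 0.002, and in 7 of 9 other settings it lay on the other side of 0, down to -0.07. In this comparison 52.4% of all genes tested were higher in Tle4cKO and 47.6% lower, 0.729% differed 2-fold and 3.03% differed 1.5-fold. None of the 6 reached either size. Fcgr3 and Fcgr4 lay just beyond the middle 95% of genes averaging 30 FPKM or more, whose upper bound was 0.31. The median of the 6 was 0.16, beside 0.01 over all genes tested. With equal totals both shifted, to 0.09 for the 6 and -0.05 over all genes tested.

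**Figure D3:**
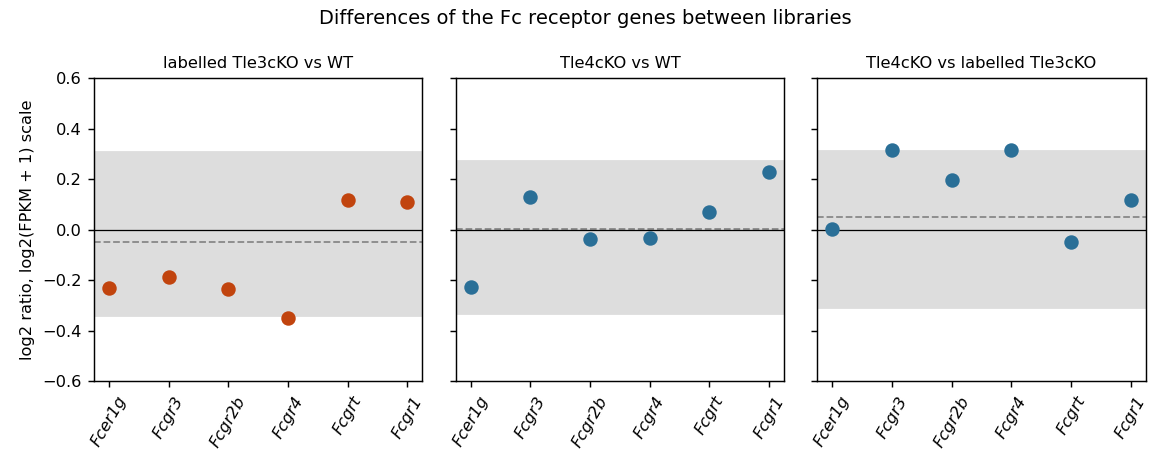
Log2 ratio on the log2(FPKM + 1) scale of each Fc receptor gene in 3 comparisons of single libraries, with the middle 95% (grey band) and the median (dashed line) of genes averaging 30 FPKM or more. Fcgr4 at -0.35 in the library labelled Tle3cKO against WT, and Fcgr3 and Fcgr4 at 0.32 in Tle4cKO against the library labelled Tle3cKO, lie just outside the bands.

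The genes were not chosen by position, which is given here as a description. The 4 genes that were lower in the library labelled Tle3cKO all lie on chromosome 1, while Fcgr1 is on chromosome 3 and Fcgrt on chromosome 7. Fcgr2b, Fcgr4 and Fcgr3 follow each other with gaps of 42.9 and 21.4 kb, and Fcer1g lies 170.2 kb beyond Fcgr3. The other 27 genes averaging 1 FPKM or more within 500 kb of this stretch lay on both sides of WT: 16 were below WT and 11 above in the library labelled Tle3cKO, with a median log2 ratio of -0.01. They ranged from -0.43 for 1700009P17Rik to 0.61 for Pcp4l1, named for being the extremes. Fcrla, the Fc receptor-like gene of B cells next to Fcgr2b, was at 0.52, and Fcrlb at -0.01. In Tle4cKO 15 of the 27 were above WT and 12 below, with a median of 0.02.

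**Figure D4:**
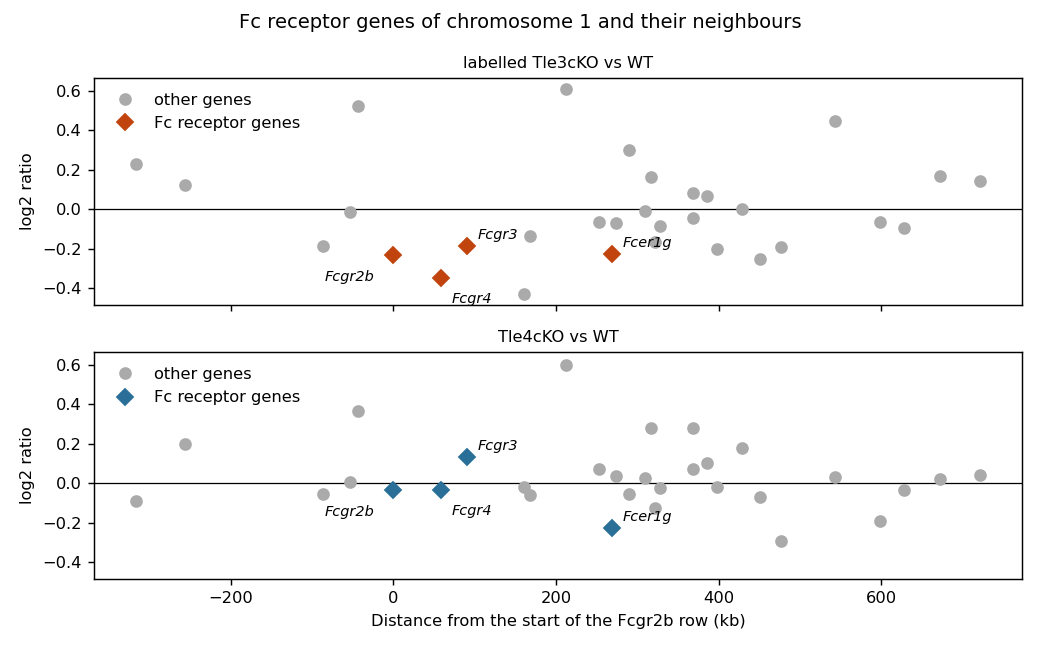
Log2 ratio on the log2(FPKM + 1) scale of each gene averaging 1 FPKM or more along chromosome 1, against the distance (kb) of its row's start from that of Fcgr2b, for the library labelled Tle3cKO against WT and Tle4cKO against WT. In the upper panel the 4 Fc receptor genes (diamonds) lie between -0.35 and -0.19, while the 27 other genes (grey) lie between -0.43 and 0.61.

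Fcer1g also serves receptors other than those for IgG. Of the 14 listed genes whose products pair with it, 10 averaged 1 FPKM or more, and in the library labelled Tle3cKO 9 of these were above WT and 1 below, with a median log2 ratio of 0.22. The chain itself was lower there. Pira2, a paired immunoglobulin-like receptor, had 13.4 FPKM in the library labelled Tle3cKO, 11.6 FPKM in Tle4cKO and 9.21 FPKM in WT, though the Pira genes are near-identical copies and their rows are uncertain. The fungal lectin receptor Clec4n (Dectin-2) had 361 FPKM in the library labelled Tle3cKO, 340.1 FPKM in Tle4cKO and 359 FPKM in WT. Clec4e (Mincle) had 116 FPKM in the library labelled Tle3cKO, 95.2 FPKM in Tle4cKO and 114 FPKM in WT. In Tle4cKO 6 of the 10 were above WT and 4 below (median 0.02, which was -0.02 when the macrophage identity genes were made equal).

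Tyrobp (DAP12), the other ITAM chain of macrophages, had 989 FPKM in the library labelled Tle3cKO, 1050 FPKM in Tle4cKO and 1174 FPKM in WT. Its log2 ratios to WT were -0.25 (library labelled Tle3cKO) and -0.16 (Tle4cKO), so both ITAM chains were below WT in both. Tyrobp stood at 1.37 times the level of Fcer1g in the library labelled Tle3cKO, 1.46 times in Tle4cKO and 1.39 times in WT.

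The kinases and adaptors downstream of the ITAM differed little. Of 27 listed genes averaging 1 FPKM or more, 6 were above WT and 21 below in the library labelled Tle3cKO, with a median log2 ratio of -0.08, which was 0.02 with equal totals. In Tle4cKO 14 were above and 13 below (median 0.001, which was -0.04 when the macrophage identity genes were made equal). Syk, the kinase that binds the phosphorylated chain, had 139 FPKM in the library labelled Tle3cKO, 159 FPKM in Tle4cKO and 153 FPKM in WT. The Src-family kinase Lyn had 164 FPKM in the library labelled Tle3cKO, 171 FPKM in Tle4cKO and 174 FPKM in WT. Fgr, of the same family, was lowest in Tle4cKO, with 14.7 FPKM in the library labelled Tle3cKO, 12.4 FPKM in Tle4cKO and 16.5 FPKM in WT. None of the 27 differed 2-fold in either comparison.

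On the inhibitory side, 7 of 14 listed genes were above WT and 7 below in the library labelled Tle3cKO, with a median log2 ratio of 0.01, which was 0.10 with equal totals. In Tle4cKO 10 were above and 4 below (median 0.08). The phosphatase Inpp5d (SHIP-1), which acts below Fcgr2b, had 62.3 FPKM in the library labelled Tle3cKO, 71.8 FPKM in Tle4cKO and 68.0 FPKM in WT. Ptpn6 (SHP-1) had 50.9 FPKM in the library labelled Tle3cKO, 62.5 FPKM in Tle4cKO and 59.8 FPKM in WT. Both were lowest in the library labelled Tle3cKO, as were Fcgr2b, Fcgr3 and Fcgr4.

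The machinery of engulfment and of the oxidative burst was described in the same way. Of 32 genes of the phagocytic cup and its actin, 7 were above WT and 25 below in the library labelled Tle3cKO (median log2 ratio -0.12, which was -0.02 with equal totals). In Tle4cKO 14 were above and 18 below (median -0.03, which was 0.02 with equal totals of the remaining genes). Coro1a, an actin-binding protein of leukocytes, had 222 FPKM in the library labelled Tle3cKO, 241 FPKM in Tle4cKO and 281 FPKM in WT. As deposited, all 6 NADPH oxidase genes were below WT in the library labelled Tle3cKO (median -0.11), but with equal totals the median was -0.02 and Cyba and Rac2 were above WT. In Tle4cKO 5 of the 6 were below WT (median -0.07). Their catalytic subunit Cybb had 171 FPKM in the library labelled Tle3cKO, 182 FPKM in Tle4cKO and 185 FPKM in WT.

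FcRn needs B2m, the light chain it shares with MHC class I, to fold and leave the endoplasmic reticulum. B2m had 2745 FPKM in the library labelled Tle3cKO, 3236 FPKM in Tle4cKO and 3528 FPKM in WT, in the opposite order to Fcgrt. It stood at 50.3 times the level of Fcgrt in the library labelled Tle3cKO, 61.3 times in Tle4cKO and 70.2 times in WT, so it was far above its partner in each. Among the 8 measured genes of FcRn partners and endosomal recycling, 2 were above WT and 6 below in the library labelled Tle3cKO (median log2 ratio -0.07, which was 0.03 with equal totals). In Tle4cKO 5 were above and 3 below (median 0.04). Rab11fip5, which binds the recycling GTPase Rab11, had 11.6 FPKM in the library labelled Tle3cKO, 11.9 FPKM in Tle4cKO and 9.07 FPKM in WT.

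Interferon-gamma raises Fcgr1 in macrophages, and the GAS letters in its promoter are shown above. Of 17 genes of that pathway, 4 were above WT and 13 below in the library labelled Tle3cKO, with a median log2 ratio of -0.20 (-0.10 with equal totals). In Tle4cKO 7 were above and 10 below (median -0.08). The receptor gene Ifngr1 had the same order as Fcgr1, at 139 FPKM in the library labelled Tle3cKO, 148 FPKM in Tle4cKO and 131 FPKM in WT.

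All 6 factors listed as binding Fc receptor promoters were below WT in the library labelled Tle3cKO as deposited, with a median log2 ratio of -0.20. With equal totals it was -0.10, and Spi1 and Cebpa were above WT. In Tle4cKO 2 were above and 4 below (median -0.07). Spi1, which encodes PU.1, hardly differed, at 476 FPKM in the library labelled Tle3cKO, 484 FPKM in Tle4cKO and 491 FPKM in WT. Irf1 had 41.3 FPKM in the library labelled Tle3cKO, 41.5 FPKM in Tle4cKO and 48.9 FPKM in WT. Irf8, which binds DNA together with PU.1, had 119 FPKM in the library labelled Tle3cKO, 148 FPKM in Tle4cKO and 136 FPKM in WT, the same order as Fcgr3.

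**Figure D5:**
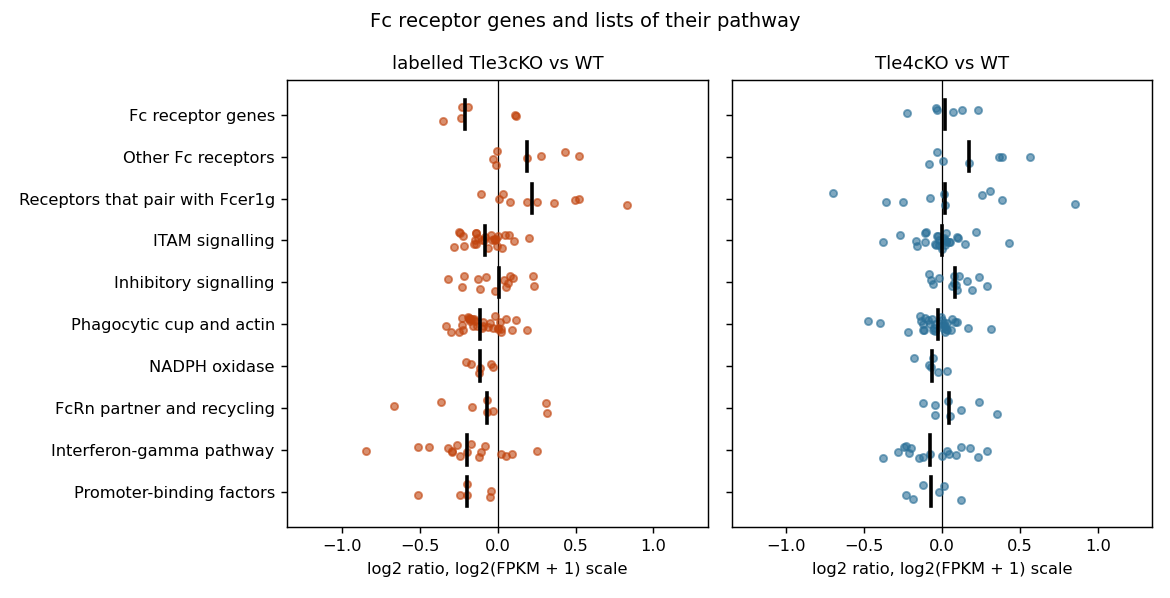
Log2 ratio on the log2(FPKM + 1) scale of the 6 Fc receptor genes and of the genes averaging 1 FPKM or more in 9 lists of their pathway, for the library labelled Tle3cKO against WT and Tle4cKO against WT. Each point is a gene, points are spread vertically to be seen, and the black bar is the list's median, which runs from -0.21 for the Fc receptor genes to 0.22 for the receptors that pair with Fcer1g in the library labelled Tle3cKO.

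The remaining Fc receptors and Fc receptor-like genes were mostly low. Of 12 listed, 7 averaged 1 FPKM or more, of which 4 were above WT and 3 below in the library labelled Tle3cKO (median log2 ratio 0.19), and 5 above and 2 below in Tle4cKO (median 0.17). Fcrls, a scavenger-type Fc receptor-like gene known from microglia in mice, was the highest, at 51.8 FPKM in the library labelled Tle3cKO, 43.2 FPKM in Tle4cKO and 38.2 FPKM in WT. The B cell gene Fcrla had 6.58 FPKM in the library labelled Tle3cKO, 5.79 FPKM in Tle4cKO and 4.27 FPKM in WT. Fcer1a and Ms4a2, the chains of the IgE receptor of mast cells and basophils that pair with Fcer1g there, were at most at 0.172 FPKM (WT) and 0.0658 FPKM (library labelled Tle3cKO), and both were listed at 0 in Tle4cKO.

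Fc receptor genes are also expressed by other cells that a colon sort can hold. B cells carry Fcgr2b as their Fc receptor for IgG, and all 9 B cell markers were lowest in WT, with summed levels of 92.6 FPKM in the library labelled Tle3cKO, 91.6 FPKM in Tle4cKO and 63.6 FPKM in WT. The log2 ratios of Fcgr2b to WT were -0.23 (library labelled Tle3cKO) and -0.04 (Tle4cKO), the second with the other sign in 1 setting. The part of B cells in them was not tested. Neutrophils carry Fcgr3 and Fcgr4, and their 11 measured markers summed to 196 FPKM in the library labelled Tle3cKO, 192 FPKM in Tle4cKO and 195 FPKM in WT, with Camp listed at 0 in all 3. S100a8 and S100a9 made up most of each neutrophil sum, so the sums say little of the other markers. Of the 6 neutrophil markers that averaged 1 FPKM or more, 1 was above WT in the library labelled Tle3cKO, against 2 in Tle4cKO. The log2 ratios to WT of Retnlg were -0.06 (library labelled Tle3cKO) and -0.93 (Tle4cKO). Those of Mmp8 were -0.39 and -1.01, and both genes averaged below 5 FPKM. NK cells carry Fcgr3 and Fcer1g, and their marker Ncr1 was below 1 FPKM in every library, with the 11 markers of T, NK and innate lymphoid cells at 363, 353 and 351 FPKM in the same order, of which Il7r alone made up 342, 332 and 337. Mast cell and basophil markers summed to 29.2 FPKM in the library labelled Tle3cKO, 36.5 FPKM in Tle4cKO and 30.5 FPKM in WT. Kit alone made up 19.5, 24.4 and 18.6 FPKM in the same order, and Hdc most of the rest. Every other marker of that list was below 1 FPKM in each library, with Mcpt4 listed at 0 in all 3. These sums thus say little of the markers other than Kit and Hdc.

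Monocyte markers summed to 227 FPKM in the library labelled Tle3cKO, 256 FPKM in Tle4cKO and 247 FPKM in WT, with 4 of 9 above WT in the library labelled Tle3cKO, and 5 of 9 above it in Tle4cKO. Plac8 alone made up 150, 156 and 146 FPKM in the same order. In each comparison 1 of the 9 differed 2-fold from WT. They were Ccr2, at 12.3 FPKM in the library labelled Tle3cKO against 28.3 in WT, and Chil3, at 0.083 FPKM in Tle4cKO against 2.50 in WT. Dendritic cells, which carry Fcgr2b, had summed markers of 346 FPKM in the library labelled Tle3cKO, 447 FPKM in Tle4cKO and 419 FPKM in WT, most of it Ccr7, and 3 of 8 were above WT in the library labelled Tle3cKO, against 7 of 8 in Tle4cKO. Endothelium carries Fcgrt and Fcgr2b, and of the 6 of its 8 markers that averaged 1 FPKM or more, 5 were above WT in each of the other libraries. All 8 summed to 43.6 FPKM in the library labelled Tle3cKO, 42.1 FPKM in Tle4cKO and 38.5 FPKM in WT, the same order as Fcgrt. Pecam1, the largest part of each sum, was instead highest in WT. It had 18.8 FPKM in the library labelled Tle3cKO, 22.4 FPKM in Tle4cKO and 24.9 FPKM in WT. The 8 fibroblast and muscle markers summed to 270.4, 253 and 220.1 FPKM in the same order, the 6 plasma cell markers to 144, 298 and 110.0, the 11 epithelial markers to 8.44, 45.1 and 3.99, and the 5 eosinophil markers to 3.48, 4.11 and 3.83, with Epx listed at 0 in all 3. The part of any of these cells in the levels of the Fc receptor genes was not tested. With the libraries scaled to equal macrophage identity genes, the log2 ratios to WT of Fcgr1 were 0.13 (library labelled Tle3cKO) and 0.19 (Tle4cKO), and those of Fcgr4 were -0.33 and -0.07.

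The genes most like Fcgr1 in their 2 log2 ratios to WT, by the distance between the pairs of ratios over the 3 libraries and among 5542 named genes averaging 10 FPKM or more, included Pla2g15 and Ppid. Pla2g15, a lysosomal phospholipase, had 42.9 FPKM in the library labelled Tle3cKO, 46.9 FPKM in Tle4cKO and 39.8 FPKM in WT. With only 3 libraries such likeness is common: 77 genes lay within a distance of 0.05 of Fcgr1. For Fcgr4, which had the largest difference from WT of the 6, the most alike were Cox17, Rfxap and Aldh16a1, and 14 genes lay within 0.05. Rfxap, a subunit of the factor that drives MHC class II genes, had 9.20 FPKM in the library labelled Tle3cKO, 12.0 FPKM in Tle4cKO and 12.1 FPKM in WT.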

How the data were processed

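Sorted cells were pooled by genotype and their RNA extracted with TRIzol and made into Illumina libraries, per the labels' protocols. The authors deposited FPKM for each gene, 1 table per library, per the file headers. TopHat2 2.1.0, Cufflinks 2.2.1 and genome build mm10 are named in the submitters' processing notes, without the part each played. FPKM depends on the total of a library, so a few abundant genes can shift all others.

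From these values log2 ratios of FPKM plus a pseudocount of 1 were computed for the 11114 genes averaging 1 FPKM or more. With 1 library per genotype there was no test, and depth being unknown no counting interval is given. Of the steps, only the calculation of ratios was tested on simulated data. The 6 genes, 9 pathway lists and 12 marker lists were chosen with earlier results of these data known. List genes named were Syk, Lyn, Inpp5d, Ptpn6, Tyrobp, B2m, Irf1, Spi1 and Cybb, and among the highest and lowest ratios to WT of each list at a mean of at least 5 FPKM. Clec4n, Fgr, Coro1a, Rab11fip5, Ifngr1, Irf8, Pira2, Fcrla, Cyba, Rac2, Cebpa and Clec4e come from the second part of that rule. Fcrls, Fcrlb, Fcer1a, Ms4a2, Camp, Ncr1, Il7r, Mcpt4, Ccr7, Epx, Emr1 and the neighbouring genes were named after their values were seen. So were Plac8, Ccr2, Chil3, S100a8, S100a9, Retnlg, Mmp8, Kit, Hdc and Pecam1. Adgre1 was read from the row Emr1 and Siglecf from Siglec5, and Ly6g was not used here. Some genes that the rule names are not reported here. Matching each gene by symbol, all 6 had a RefSeq promoter on GRCm38.p6. Fcgr3 has 2 starts there, and that of the deposited row was used. Ensembl identifiers are from GENCODE M21, and gene positions from the deposited tables. Other settings were pseudocounts of 0.1 and 5, filters, 5 scalings and a 1.5-fold threshold. After seeing the data, ratios relative to genes of like transcript length (93.0% of genes matched) or like mean FPKM, in 10 bins each, and a filter without the library labelled Tle3cKO were added. Python 3.11.15, numpy 2.4.6, pandas 2.3.3 and matplotlib 3.10.9 were used.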

Additional observations from a re-analysis of the deposited data

How the results depend on the processing

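With no replicates, a log2 value was taken to have moved when it changed by more than 0.1. Of 162 recomputed ratios of single Fc receptor genes 157 moved by less, and 9 took the other sign, all of them within 0.07 of 0. The median of the 6 genes for the library labelled Tle3cKO against WT was -0.11 with equal totals of all but histone, small RNA, receptor segment and ribosomal protein genes. The median over all genes tested was 0.08 in that setting. Genes at least 2-fold apart numbered 47 for the library labelled Tle3cKO against WT, 72 for Tle4cKO against WT and 81 for Tle4cKO against the library labelled Tle3cKO. In the same order they were 150, 159 and 195 at pseudocount 0.1, 17, 22 and 21 at pseudocount 5, 25, 29 and 39 at a mean of at least 5 FPKM, and 298, 323 and 337 at 1.5-fold, where fewer or more genes pass by construction. For the first comparison 24 were higher and 23 lower, against 41 and 20 with equal totals. Without the library labelled Tle3cKO in the filter, 76 genes differed 2-fold between Tle4cKO and WT. The proportion of Fcgr2b to the activating receptors was 0.632 in the library labelled Tle3cKO, 0.581 in Tle4cKO and 0.632 in WT without Fcgr1, since a term is removed from the sum. No paired analysis was possible because each genotype is 1 library. Pooled single libraries of unknown depth leave differences of the sizes seen here without an error.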
